A study of Mus musculus with 4 samples.

Results

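Granzymes are serine proteases stored in the secretory granules of cytotoxic lymphocytes, and perforin is the pore-forming protein that lets them reach the cytosol of a target cell. The genes described here are the granzyme genes Gzma, Gzmb, Gzmc, Gzmd, Gzme, Gzmf, Gzmg and Gzmk, the perforin gene Prf1, and Nkg7, which encodes a granule membrane protein of cytotoxic cells. They were chosen by name and are 10 of the 31053 features counted in the deposited matrices. They were followed in 5937 T-like and 1448 NK-like cells, 7385 of the 25880 cells kept from mouse fibrosarcomas.

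The tumours carried either a Cas9 control or a Raldh1/3 double knockout (DKO), a loss of retinaldehyde dehydrogenases, which make retinoic acid. Tumours were untreated and were harvested on day 11 after implantation. Live CD45+ leukocytes were sorted, and each of the 4 single-cell libraries pooled 2 tumours, so that 2 control and 2 DKO libraries stand for 4 tumours per group. The labels name neither the age nor the strain of the host mice. They put the knockout in the tumour, so the sorted leukocytes do not check it: all 4 libraries together held 2 unique molecular identifiers (UMIs, each tagging 1 captured transcript molecule) of Aldh1a1, the gene of RALDH1. Aldh1a3, the gene of RALDH3, had 28 and 9 UMIs in control 1 and control 2 and 10 and 24 in DKO 1 and DKO 2.

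Gzma is a tryptase and Gzmb cleaves after aspartate, which starts apoptosis in the target. Gzmk is a tryptase best known from memory and pre-exhausted CD8 T cells. Gzmc, Gzmd, Gzme, Gzmf and Gzmg are rodent genes close to Gzmb that strongly activated T and NK cells switch on. In mice, NK cells hold granzyme B and perforin transcripts at rest and load the proteins on activation, and regulatory T cells of tumours are known to use granzyme B.

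The granzymes lie in separate loci of GRCm38, the build of the annotation the coordinates were read from. Gzma (chromosome 13, 113093825 to 113100981) and Gzmk (113171608 to 113225908) are neighbours on the minus strand, 70.6 kb apart. The other 6 lie on the minus strand of chromosome 14 within 145 kb. In order of position these are Gzme (56117626 to 56120625), Gzmd (56129556 to 56132608), Gzmg (56156582 to 56159579), Gzmf (56205263 to 56211417), Gzmc (56231441 to 56234656) and Gzmb (56258838 to 56262260), with Gzmn between Gzmg and Gzmf. Prf1 lies on chromosome 10 (61297833 to 61304680) and Nkg7 on chromosome 7 (43437073 to 43438249), both on the plus strand.

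The coding sequences of Gzmd and Gzme were 93.3% identical, Gzmd, Gzme, Gzmf and Gzmg otherwise matched at 83.6% to 89.5%, and Gzmc matched these 4 at 71.5% to 73.4%. Reads that fit several genes could therefore be split or dropped by the authors' counting. In the last 400 bases of each transcript, where 3′ libraries read, 0 of 311 windows of 90 bases were shared with another granzyme transcript.

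Gzmc to Gzmg were found together in the same cells, so their promoters are shown, with that of Gzmb, a neighbouring gene that was found in far more cells. The sequences are RefSeq's on GRCm38.p6, minus strand, bases −200 to −21 before each start. Capitals mark matches, on either strand, to the Runx core TGTGGT, to the cyclic AMP response element TGACGTCA and to the AP-1 site TGANTCA.
Gzmb: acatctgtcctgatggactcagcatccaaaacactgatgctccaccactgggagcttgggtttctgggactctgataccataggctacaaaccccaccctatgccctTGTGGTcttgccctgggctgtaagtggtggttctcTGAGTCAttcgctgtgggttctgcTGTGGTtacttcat
Gzmc: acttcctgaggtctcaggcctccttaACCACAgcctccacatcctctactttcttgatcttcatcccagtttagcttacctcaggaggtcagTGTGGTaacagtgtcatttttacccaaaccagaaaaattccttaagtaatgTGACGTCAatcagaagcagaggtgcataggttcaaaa
Gzmd: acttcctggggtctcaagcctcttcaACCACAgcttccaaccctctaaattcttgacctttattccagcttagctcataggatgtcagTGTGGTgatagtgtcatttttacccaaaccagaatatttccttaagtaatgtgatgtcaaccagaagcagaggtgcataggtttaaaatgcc
Gzme: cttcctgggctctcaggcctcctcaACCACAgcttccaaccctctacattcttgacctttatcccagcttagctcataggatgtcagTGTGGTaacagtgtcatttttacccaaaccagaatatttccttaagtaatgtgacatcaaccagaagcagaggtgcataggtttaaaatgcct
Gzmf: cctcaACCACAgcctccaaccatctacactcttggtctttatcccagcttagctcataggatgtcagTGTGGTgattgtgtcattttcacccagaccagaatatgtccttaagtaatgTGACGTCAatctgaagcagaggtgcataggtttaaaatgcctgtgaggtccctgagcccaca
Gzmg: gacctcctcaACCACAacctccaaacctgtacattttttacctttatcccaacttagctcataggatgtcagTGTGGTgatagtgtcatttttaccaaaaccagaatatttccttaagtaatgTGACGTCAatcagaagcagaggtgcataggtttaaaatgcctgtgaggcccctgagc
The regions are chr14:56262355-56262534 for Gzmb, chr14:56234678-56234857 for Gzmc, chr14:56132614-56132793 for Gzmd, chr14:56120646-56120825 for Gzme, chr14:56211428-56211607 for Gzmf and chr14:56159600-56159779 for Gzmg. Gzmc to Gzmg each held 2 Runx cores in opposite orientation, and the Gzmd and Gzme windows were 95% identical. TGACGTCA was found in Gzmc, Gzmf and Gzmg, with its first base at −57, −82 and −77, and not in Gzmd or Gzme. Gzmb held 2 Runx cores in the same orientation and an AP-1 match at −58. Among 32851 RefSeq promoter windows of the same length, 10.3% held TGTGGT, 1.21% TGACGTCA and 5.06% TGANTCA. The T-box core TCACAC (8.97%) and the STAT motif TTCNNNGAA (4.93%) were also searched on both strands and were not in these 6 windows. A match describes the letters and is not a binding site.

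The libraries held 57458026 to 80032966 UMIs and 4647 to 7638 kept cells each, and any pair of libraries shared 20 to 38 cell barcodes. The labels do not say whether tumours came from separate animals, so p-values measure the spread between these libraries. Levels are given as CPM, the UMIs of a gene per 1e6 UMIs, in the sum over a group's cells of 1 library, always in the order control 1, control 2, DKO 1 and DKO 2. They describe 8 groups with at least 50 cells in every library and a ninth, smaller one, and 3 further small groups are not described by level. Cells were grouped without using the 10 genes. The groups were NK-like, CD8 T-like, a T-like group led by Klra6 and Trdc, CD4 T-like, regulatory T-like (Foxp3), type 2 T-like (Il13, Il4, Il5), cycling T-like, and a CD8 T-like group led by Ccr7. The ninth, led by Spp1 and Tmsb15a, had Itga1 in 85.3% of its 136 cells, Cd3 chains in 73.5% and Ncr1 in 46.3%, so it was not named T or NK. It had 16, 52, 49 and 19 cells by library. Of these cells 37.5% came from the NK-like class and the rest from the T-like class, so results for the 2 classes include them.

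Gzma was mostly an NK-like transcript. Its level in the NK-like group was 8150, 9833, 11720 and 11422 CPM, and 92.7% of these cells held a UMI of it. In the CD8 T-like group it was 612, 2103, 958 and 889 CPM, and in the Klra6 and Trdc group 364, 636, 567 and 801 CPM, so that these 2 groups overlapped. Every CD8 T-like library lay below every NK-like one. The NK-like class as a whole held 72% of all Gzma UMIs. Regulatory T-like cells lay at 11.5 to 43.2 CPM.

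Gzmb was high in T-like as well as NK-like cells. It reached 2320, 2568, 2616 and 2045 CPM in regulatory T-like cells, where 79.6% of cells held a UMI, against 1200, 1387, 1544 and 1999 CPM in the NK-like group. All 4 regulatory T-like values lay above all 4 NK-like values. The Spp1 and Tmsb15a group overlapped the regulatory T-like range at 2139, 3722, 2910 and 2650 CPM, with Gzmb in 91.9% of cells. The cycling T-like cells (1283, 1656, 1719 and 1617 CPM) and the CD8 T-like cells (888, 2070, 1604 and 1482 CPM) overlapped the NK-like range. The T-like class held 68.2% of all Gzmb UMIs. In CD4 T-like cells Gzmb was at 49.3 to 139 CPM and in 12.3% of cells.

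Regulatory T-like cells thus carried Gzmb without much of the rest of the set. Their Prf1 was 19.9, 51.3, 73.1 and 56.6 CPM, in 13.5% of cells, and Nkg7 was found in 33.7%, against 98.1% of CD8 T-like and 97.7% of NK-like cells. Gzma was found in 5% of regulatory T-like cells. At an equal depth of 2000 UMIs per cell, Gzma was present in 2.77% of them and in 1.69% of myeloid-like cells (median depth before thinning 3987 and 10010 UMIs). Myeloid-like cells should lack Gzma and are given as a background level. Whether free RNA accounts for that level was not tested.

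Prf1 was at 1041, 1163, 1365 and 1450 CPM in the NK-like group, which the Spp1 and Tmsb15a group overlapped at 1333 to 2080 CPM. In CD8 T-like cells it was at 290, 433, 460 and 425 CPM. The cycling T-like cells overlapped the CD8 T-like range at 241 to 469 CPM. The Klra6 and Trdc group (60.5 to 100 CPM) and the Ccr7 group (50.8 to 122 CPM) overlapped each other and lay lower. In CD4 T-like and type 2 T-like cells Prf1 was at most 14.7 CPM. Nkg7 varied least in the NK-like group, at 1903, 2083, 1907 and 1902 CPM, and CD8 T-like cells overlapped it at 1677 to 2334 CPM.

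Gzmk was a CD8 T-like transcript. It stood at 87.9, 123, 163 and 107 CPM in the CD8 T-like group, with a UMI in 41.7% of cells, and at 55.7, 66.3, 108 and 43.6 CPM in cycling T-like cells, which overlapped. These groups held 61.4% and 21.8% of all its UMIs. The NK-like group lay at 6.31 to 8.25 CPM with a UMI in 3.03% of cells. The Klra6 and Trdc group, in which 95% of cells held Nkg7, had Gzmk in 0.395%.

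Gzmc to Gzmg were concentrated in the Spp1 and Tmsb15a group, which was only 136 cells with a median of 13037 UMIs. Gzmf was at 13292, 18442, 11557 and 3485 CPM there, Gzmc at 11737, 12897, 5824 and 6035 CPM, and Gzmg at 7911, 13072, 8923 and 945 CPM. This group held 79.8% of all Gzmd UMIs, 70.3% of Gzme, 75.6% of Gzmf, 91.9% of Gzmg and 53.5% of Gzmc. It held 12.1% of Gzma UMIs. The NK-like class, which includes part of this group, held 87.5% of Gzmg UMIs, whereas the NK-like group held 2.34%. In the regulatory T-like, Klra6 and Trdc and Ccr7 groups, each of Gzmd to Gzmg lay at 18.1 CPM or lower in every library.

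**Figure D1:**
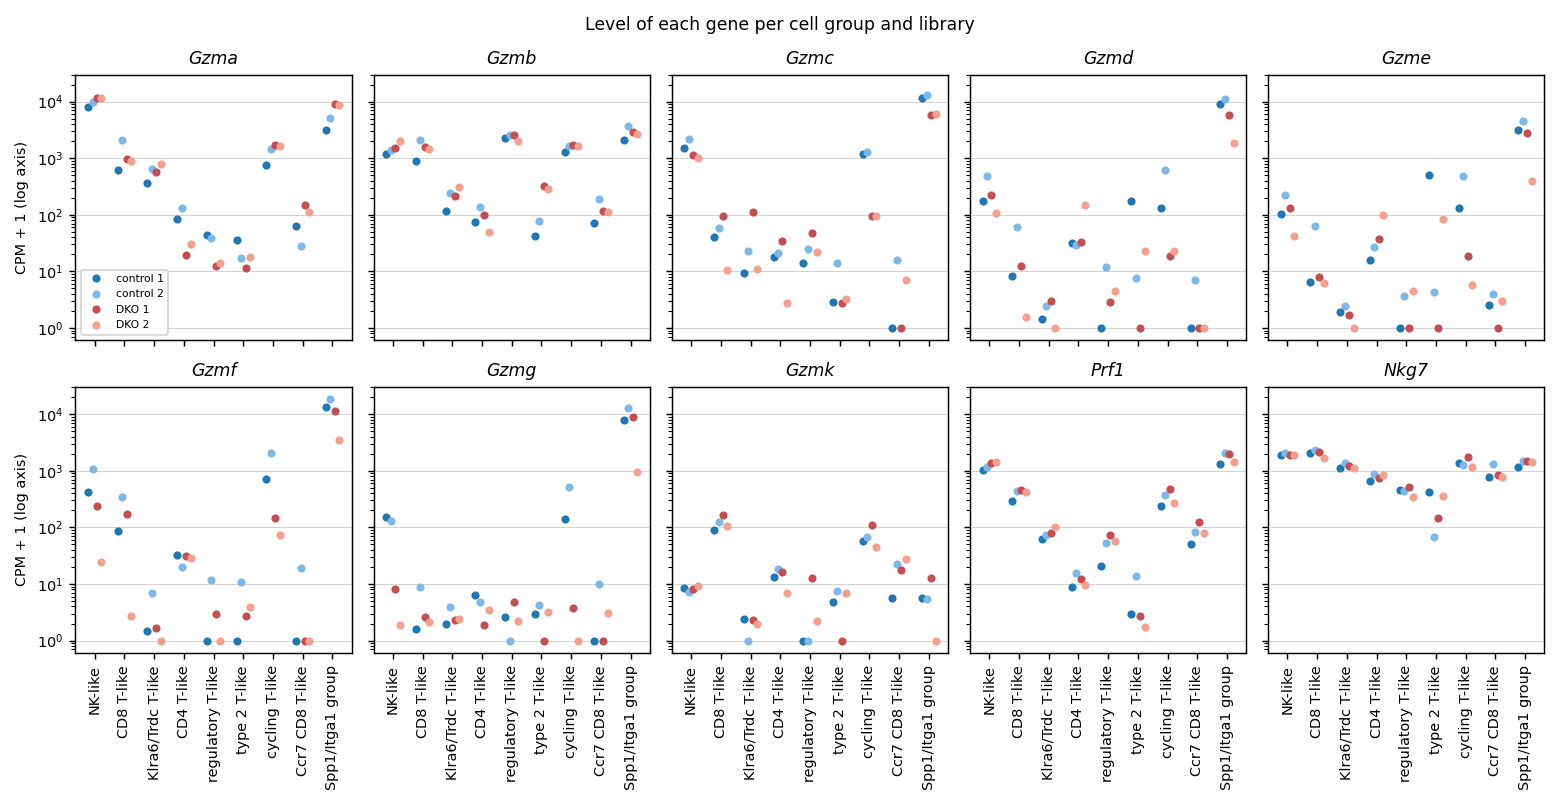
Level of each of the 10 genes, as CPM + 1 on a log axis, in 9 T and NK groups, with 1 point per library. Gzma and Prf1 are highest in the NK-like group and the Spp1/Itga1 group (Spp1 and Tmsb15a lead it), Gzmb is also high in regulatory T-like cells (2045 to 2616 CPM), Gzmk is high in CD8 T-like cells (87.9 to 163 CPM), and Gzmc to Gzmg peak in the Spp1/Itga1 group.

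Each of the 10 genes was compared with 5826 genes over the 48 sums of group and library. The highest Pearson r of log2(CPM + 1) was that of Gzmd with Gzme (0.96). Gzmf followed Gzmd at 0.83, and Gzmg followed Gzmd at 0.83. Gzma and Prf1 were alike (0.87), and the closest other genes were Klre1 for Gzma (0.88) and Arsb for both (0.88 with Gzma, 0.89 with Prf1). Car2 came next for Prf1 (0.80). Gzmb was nearest to 1700017B05Rik (0.75), Irf8 (0.71) and Prf1 (0.69).

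Gzmc was nearest to Tcf4 (0.86), ahead of Gzmd (0.81) and Gzmg (0.79), and Ctsg was among the 3 nearest to Gzmg (0.81). Spp1 was the closest gene to Gzmd and Gzme from outside the set (0.80), and Eif5a to Gzmf (0.76). Gzmk was nearest to Rpa2 (0.78), Pdcd5 (0.69) and Cd8a (0.66), and Nkg7 to Slamf7 (0.84), Klrc1 (0.83) and Ctsw (0.83). The sums share libraries, depth and cell types, so these values are descriptions.

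Presence in the same cell was counted after each cell was thinned to 2000 UMIs, with shallower cells left out. For 2 genes that fall in cells independently the ratio of observed to expected joint presence is 1. The phi coefficient, a correlation of presence, is 0 in that case.

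In T-like cells Gzma and Gzmb were together in 551 cells. The ratio was 1.9, 1.73, 1.79 and 1.96 in the 4 libraries, and phi over all of them was 0.27. Of cells with Gzma, 60.7% also held Gzmb, whereas 30.5% of cells with Gzmb held Gzma. Gzmb and Prf1 behaved alike, with 542 cells and a ratio of 1.85. In the CD8 T-like group alone, where cell type varies less, Gzma and Gzmb still shared 261 cells at a ratio of 1.45.

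In NK-like cells Gzma was present in 90.7% of cells and Prf1 in 79.4%. Such high shares leave the ratio little room above that of independent genes. Gzma and Prf1 shared 1010 cells at a ratio of 1.04, and Gzma and Gzmb 832 cells at 1.05. These ratios therefore cannot tell independent from joint presence. Much higher ratios were found among the rarer chromosome 14 genes. Gzmd and Gzme shared 98 cells, with ratios of 22.7, 4.3, 8.83 and 18.5 by library and a phi of 0.79, and 89.1% of cells with Gzme held Gzmd. Gzmf and Gzmg shared 40 cells (ratio 13.2, phi 0.61).

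Gzmc was the wider member of this block in NK-like cells. It was found in 91.9% of cells with Gzmd, 95.5% with Gzme, 89% with Gzmf and 96% with Gzmg, while 38.3% of Gzmc cells held Gzmd and 14.8% held Gzmg. Presence of Gzmg was thus nearly contained in that of Gzmc. Gzmb was found in 71.1% to 76% of the cells with Gzmc, Gzmd, Gzme, Gzmf or Gzmg, against 64.8% of all NK-like cells (ratios 1.10 to 1.17). Its phi with the 5 genes was 0.04 to 0.10, where the shares of cells themselves allow no more than 0.14 for Gzmg and 0.41 for Gzmc. Gzma was in 82.9% to 88.2% of the same cells, against 90.7% of all.

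T-like cells showed the block more loosely. Gzmd and Gzme shared 43 cells (ratio 39.4, phi 0.54), Gzmc and Gzmf 48 cells (ratio 11.4, phi 0.29), and Gzmf and Gzmg 8 cells (phi 0.11). Gzmb shared 148 cells with Gzmc (ratio 2.33, phi 0.17) and 84 with Gzmf (ratio 2.17), which was 70% of the cells with Gzmf. Gzma and Gzmc shared 88 cells (ratio 2.76, phi 0.15). Gzmk stood outside it in the CD8 T-like group: 67.1% of cells with Gzmk held Gzmb (196 cells, ratio 1.24) and 39.4% held Gzma (115 cells, ratio 1.49), while Gzmk and Gzmf shared 7 cells (ratio 0.669). In regulatory T-like cells 86.1% of cells with Prf1 held Gzmb, 31 cells in all, at a ratio of 1.15.

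**Figure D2:**
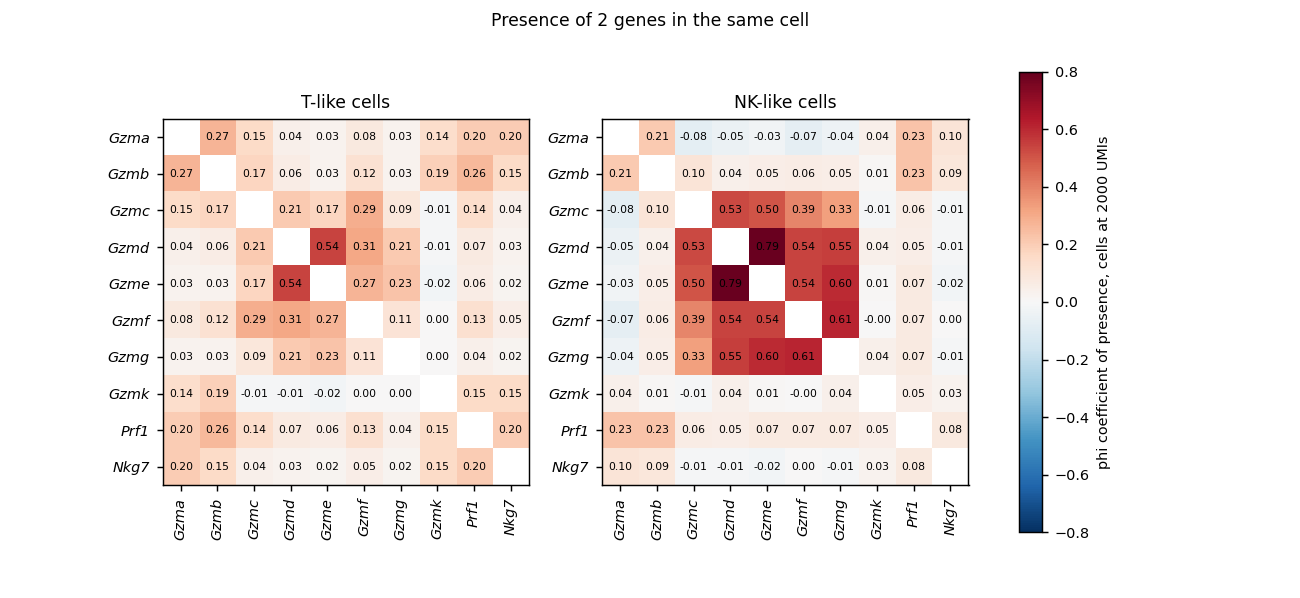
Phi coefficient of presence for each of the 45 pairs of genes in T-like cells (left) and NK-like cells (right), all libraries together, cells thinned to 2000 UMIs. In NK-like cells Gzmc to Gzmg form a block that reaches 0.79 for Gzmd and Gzme, and Gzmb lies between 0.04 and 0.10 with them, in a range that the unequal shares of cells limit (at most 0.14 for Gzmb and Gzmg).

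The UMIs of Gzmd to Gzmg came from few cells. A total of 212 T and NK cells held at least 10 UMIs over these 4 genes and are called rich cells here, a limit chosen after the values were seen. These cells held 98.9%, 99.3%, 99.1% and 95.7% of the 4 genes' T and NK UMIs. They numbered 29, 90, 65 and 28 by library, or 1.52%, 5.99%, 2.87% and 1.63% of T and NK cells. By share, control 2 was the highest library and control 1 the lowest, so the control libraries enclosed both DKO libraries. With a limit of 1000 UMIs the counts were 3, 12, 7 and 0.

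Among the 212 cells, 83 held Ncr1, an NK receptor, and no Cd3 chain, and 71 held at least 2 UMIs of Cd3 chains and no Ncr1. A further 30 held both kinds of transcript. Itga1, an integrin of tissue-resident lymphocytes, was in 68.9% and Spp1, which encodes osteopontin, in 67.5%. Gzmb was in 90.6%, Prf1 in 88.7%, Gzmk in 9.43%. Their median depth was 11111 UMIs, against 5211 in T-like and 4697 in NK-like cells, and whether doublets add to the cells with both markers was not tested.

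The genes found in the rich cells are described here by group. The 68 rich cells of the NK-like group held Gzmd in 89.7%, Gzmf in 52.9% and Gzmg in 26.5%. The 29 CD8 T-like ones held Gzmf in 89.7%, Gzmd in 48.3%, Gzmg in 10.3% and Gzmk in 34.5%. The 16 CD4 T-like ones, all with a Cd4 UMI, held Gzmd and Gzme in 87.5% each, Gzmc in 31.2% and Prf1 in 31.2%. In the Spp1 and Tmsb15a group, Gzmf was in 89.2% and Gzmg in 78.5% of 65 cells. The 5 type 2 T-like cells held Gzme in all 5, Gzmd in 80%, and Gzmc, Gzmf and Prf1 in 0.

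No rich cell was seen among 1266 cells of the Klra6 and Trdc group, which allows a share of up to 0.237%, among 520 regulatory T-like cells (up to 0.577%) or among 345 cells of the Ccr7 group (up to 0.87%). DKO 2 had none among 211 CD8 T-like cells (up to 1.42%). The other 3 libraries had 5, 10 and 14 of them. These limits cover counting error only.

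**Figure D3:**
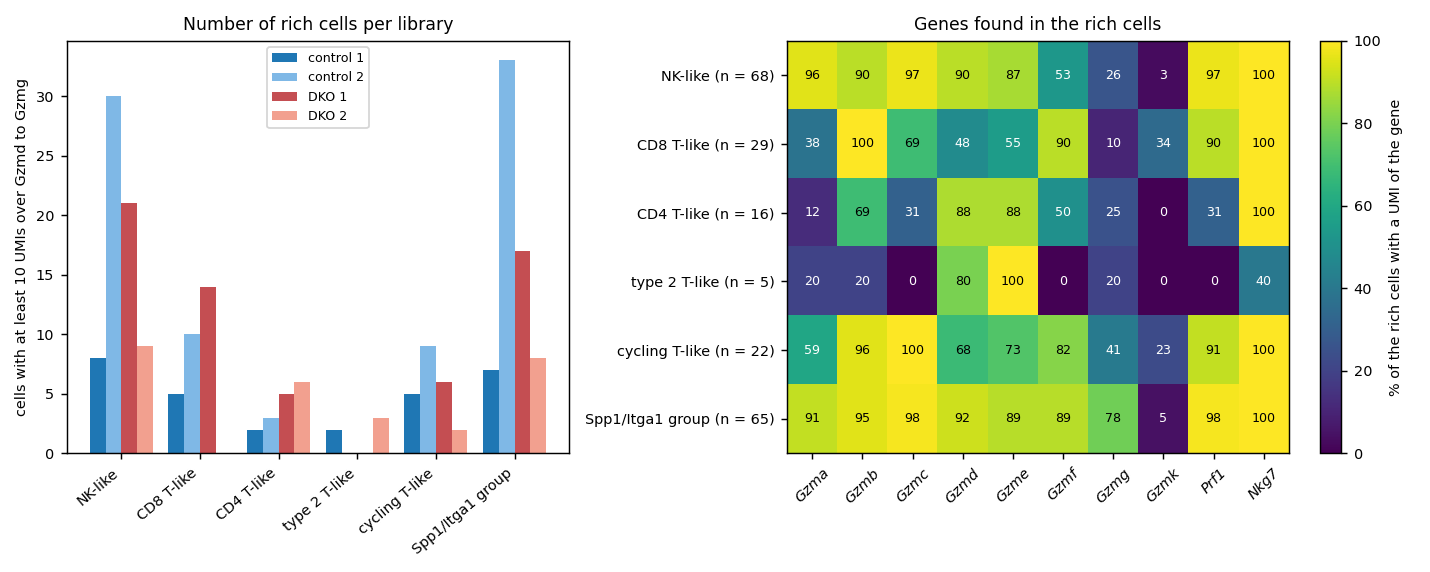
Left, bars from 0 give the number of cells with at least 10 UMIs over Gzmd to Gzmg in each library, for the 6 groups with 5 or more such cells. Right, the percentage of these cells with a UMI of each gene. Among Gzmd to Gzmg, Gzmf is the most frequent in CD8 T-like cells (89.7%), Gzmd and Gzme in CD4 T-like cells (87.5% each), and Gzmg is frequent in the Spp1/Itga1 group (78.5%).

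The comparison of DKO with control tumours asks whether the cytotoxic genes of tumour lymphocytes differ when the tumour lacks these enzymes. UMIs were summed per library and class and tested across all genes with edgeR. None of the 10 genes passed the threshold of 0.05 on the adjusted p in T-like or NK-like cells. The same held for nearly all genes: 0.00882% of 11337 genes were called in T-like cells (1 gene) and 0.0667% of 8993 in NK-like cells (6 genes). Unadjusted p-values under 0.05 numbered 1662 (14.7%) and 866 (9.63%), and none of the 10 genes was among them. DESeq2 called 46 (0.406%) and 4 genes (0.0445%), none of the 10 among them, and gave Gzmd to Gzmg in T-like cells adjusted p-values of 0.211 to 0.569. With 1 library left out, 1 group rests on a lone library, and calls moved both among the 10 genes and over all genes.

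The called genes were Lyz2, a macrophage lysozyme, in T-like cells (log2 change −1.88) and in NK-like cells Lyz2 (−2.14), Hspa1b (1.91), Apoe (−1.13), Slc7a5 (1.64), Pim2 (0.96) and Tnfsf11 (−2.60). Lyz2 and Apoe are on the list of 10 monocyte and macrophage markers. Over that list the summed level was 488, 525, 273 and 275 CPM in T-like cells and 545, 552, 275 and 269 CPM in NK-like cells, and 10 of 10 genes were lower in DKO in both. In myeloid-like cells the sum was 21177, 20715, 17899 and 18349 CPM. No gene of the list was at 0, and its part in the differences below was not tested.

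Gzma in T-like cells was 389, 1045, 1047 and 775 CPM, and Gzmb 605, 1078, 1119 and 836 CPM. Control 1 was the lowest library for both, and control 2 lay between the DKO values, so the groups overlapped. The log2 change, DKO over control, was 0.27 ± 0.62 (SE, n = 2 libraries per group, edgeR adjusted p 0.896) for Gzma and 0.14 ± 0.33 (edgeR adjusted p 0.890) for Gzmb. Without control 1 both turned negative, to −0.28 and −0.23.

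In NK-like cells Gzma was 7861, 9024, 11004 and 11174 CPM, with both DKO libraries above both controls. The log2 change was 0.31 ± 0.20 (edgeR adjusted p 0.638), smaller than 2 standard errors. Such a separation, higher in DKO without overlap, was found for 25.4% of the genes tested in NK-like cells. Gzmb there was 1304, 1957, 1726 and 2072 CPM, overlapping, with a change of 0.13 ± 0.21 (edgeR adjusted p 0.888).

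Prf1 was 120, 209, 290 and 163 CPM in T-like cells (0.39 ± 0.49) and 1112, 1536, 1615 and 1476 CPM in NK-like cells (0.14 ± 0.20), overlapping in both. Nkg7 was 1145, 1324, 1423 and 992 CPM in T-like cells (−0.10 ± 0.19) and 1827, 1945, 1818 and 1867 CPM in NK-like cells (−0.11 ± 0.18). Gzmk in T-like cells was 28.1, 40.7, 76.3 and 29.3 CPM (0.58 ± 0.68). DKO 1 alone was high, without it the change turned to −0.33, and without DKO 2 it was 1.12 and called (edgeR adjusted p 3.22e-11). Prf1 in T-like cells was at −0.13 without DKO 1 and at 0.78, called, without DKO 2 (adjusted p 0.0379). Gzmk in NK-like cells stayed under 10 CPM in every library (0.16 ± 0.40). With all 4 libraries the edgeR adjusted p-values of these 3 genes ran from 0.772 to 0.938.

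Gzmc to Gzmg were lower on average in DKO in both classes, and none passed the test. Gzmc was 260, 506, 206 and 86.3 CPM in T-like cells, with both DKO libraries below both controls, and 2439, 5238, 2440 and 1466 CPM in NK-like cells, where DKO 1 lay beside control 1. The changes were −1.45 ± 0.72 and −1.06 ± 0.59 (edgeR adjusted p 0.50 and 0.649). Without control 1 or without DKO 1 the NK-like value was −1.54 and called, where a lone library is assumed to vary like the other group. The T-like value ran from −2.26 to −0.87 with 1 library left out and became 0.11 when the 10 genes were left among those used for grouping.

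For the rest of the block in NK-like cells, libraries of 1 group differed by more than the group means did. Gzmf in NK-like cells was 1749, 5716, 4057 and 432 CPM, and Gzmg 1109, 3934, 3077 and 126 CPM: control 2 was highest, DKO 2 lowest, and control 1 lay between them. The log2 changes were −0.80 ± 1.68 and −0.71 ± 2.12 (edgeR adjusted p 0.933 and 0.954). Without control 2 they turned to 0.38 and 0.55. Gzmd (−0.95 ± 1.48) and Gzme (−0.84 ± 1.77) likewise turned to 0.10 and 0.31. All 4 were negative and called without DKO 1 (−4.49 to −2.96) or without control 1 (−1.55 to −1.38), so that the call depended on which library was left out.

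In T-like cells Gzmd was 53.9, 341, 21.1 and 34.5 CPM, Gzme 62.1, 178, 25.7 and 29.7 CPM, Gzmf 182, 822, 119 and 26 CPM, and Gzmg 23.8, 267, 12.1 and 1.58 CPM. All 4 were without overlap and lower in DKO, which held for 16.5% of all genes tested in T-like cells. The log2 changes of −2.92 ± 1.34, −2.19 ± 0.72, −2.85 ± 1.49 and −4.42 ± 2.11 came with edgeR adjusted p-values of 0.379 to 0.535. With 1 library left out the values ran from −3.72 to −1.02 for Gzmd, −2.77 to −1.22 for Gzme, −4.39 to −1.36 for Gzmf and −6.61 to −1.79 for Gzmg, each nearest to 0 without control 2. They were −0.11, −0.64, −0.64 and −1.14 when the 10 genes were left among those used for grouping. Gzme was called without control 1 (−2.77) or without control 2 (−1.22), and Gzmd without control 1 (−3.72). These sums hung on few cells: 1 cell held 81.5% of the Gzmg UMIs in control 1 and 86.7% in DKO 1, and 1 cell 55.1% of the Gzmf UMIs in control 1. The change in NK-like cells minus that in T-like cells was called for 10 of 10792 genes (0.0927%) and for none of the 10 genes. Gzmc came closest, with a difference of 0.53 ± 0.14 (edgeR adjusted p 0.337).

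**Figure D4:**
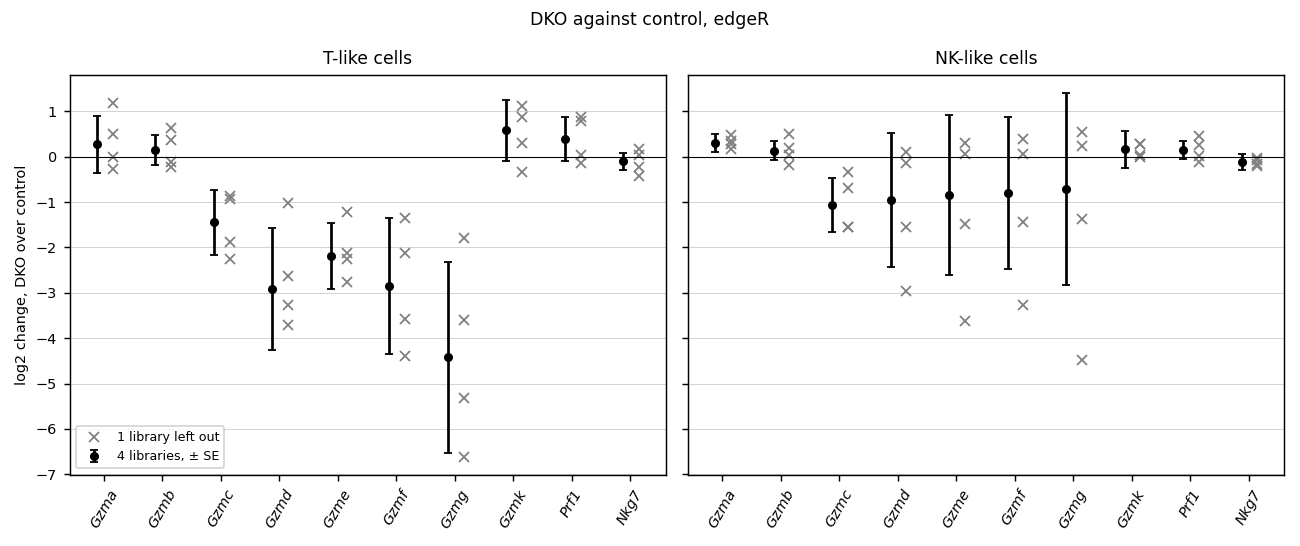
Log2 change, DKO over control, of each gene in T-like cells (left) and NK-like cells (right). Points and bars are the edgeR estimate ± SE over 4 libraries, and crosses the estimates with 1 library left out. For Gzma, Gzmb, Prf1 and Nkg7 the estimates over 4 libraries lie between −0.11 and 0.39. With 1 library left out they run from −0.43 (Nkg7) to 1.18 (Gzma) in T-like cells. The estimates of Gzmd to Gzmg in NK-like cells spread to both sides of 0 when 1 library is left out.

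The share of cells with each gene was compared at 2000 UMIs per cell. In T-like cells Gzma was present in 11%, 17.9%, 19.3% and 16.4% of cells and Gzmb in 25.5%, 35.2%, 38.1% and 29.6%. The groups overlapped for all 10 genes there, against 44.1% of all tested genes that did not. In NK-like cells 1 of the 10 genes did not overlap, against 39.2% of all tested genes. This was Prf1, at 73.3%, 80.8%, 82.1% and 81% (exact two-sided permutation p 0.333, the smallest that 2 against 2 libraries allow). Of 45 pairs, 11 in T-like and 4 in NK-like cells had shares of joint presence that did not overlap, against 31.8% and 27.6% of all pairs of tested genes found together in at least 1 cell. The pairs share genes and cells.

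Gzmd in NK-like cells was present in 4.4%, 20.1%, 10.9% and 4.15% of cells, and Gzmg in 1.89%, 9.17%, 3.07% and 0.593%. Control 2 held the most and DKO 2 the fewest, and control 1 lay between DKO 2 and DKO 1 for both. The order of libraries in the CPM was thus found in the number of cells as well. In myeloid-like cells, given as a background level, Gzmg was present in 0.0431%, 0.665%, 0.156% and 0.129%, again highest in control 2.

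In the 8 single groups, 57 of the 80 combinations of gene and group passed the filter on low counts, and 6 were called, 2 higher and 4 lower in DKO. Over all genes in these groups 0.511% were called (310 of 60677 tests), and over the genes of the 3 groups with no call among the 10, 0.771% in CD8 T-like cells, 0.895% in the Klra6 and Trdc group and 0.0313% in regulatory T-like cells. Any 1 library left out raised the number of calls among the 10 genes, and the calls over all genes moved as well. A gene that passes the filter only through the libraries where it is high had to differ. The count of 6 calls therefore does not show that the set stands apart. The calls are given with the share of UMIs held by the richest cell of each library and the level without that cell or without the 5 richest cells, settings added after these shares were seen. A library in which no more than 5 cells held a UMI falls to 0 without the 5 richest by construction.

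Gzmc was lower in DKO in cycling T-like cells, a group with a median of 12155 UMIs per cell. Its level was 1171, 1283, 93.5 and 95.9 CPM, from 21, 25, 20 and 18 cells with a UMI. Both controls lay more than 10 times above both DKO libraries. The log2 change was −3.76 ± 0.16 (edgeR adjusted p 7.72e-24, 0.290% of 8280 genes called in this group). The richest cell held 64%, 39.4%, 23.4% and 41.3% of the UMIs, and without it the levels were 422, 777, 71.6 and 56.3 CPM. The 5 richest cells held 93.8%, 94.1%, 74.3% and 85.1%, and without them the levels were 72.9, 75.8, 24.1 and 14.3 CPM, still higher in both controls. At 2000 UMIs the share of cells with Gzmc was 13.8%, 15.7%, 6.82% and 7.46%, so the shares were closer than the levels. Cd3 chains were found in 93.6% of the group's cells and Ncr1 in 7.16%. Of its 22 rich cells, all with Gzmc, 12 held at least 2 Cd3 UMIs and no Ncr1, and 5 held Ncr1 and no Cd3 chain. Which of these cells carry the Gzmc difference was not tested.

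In the same group the log2 values were −4.27 for Gzmd, −4.70 for Gzme, −3.70 for Gzmf and −7.65 for Gzmg, and none passed (edgeR adjusted p 0.382 to 0.481). Gzmg was 141, 519, 2.73 and 0 CPM there. Gzmb (1283, 1656, 1719 and 1617 CPM) and Prf1 (241, 378, 469 and 272 CPM) overlapped. The monocyte and macrophage list summed to 344, 477, 204 and 181 CPM in these cells. Its part in the Gzmc difference was not tested, and Gzmc had a UMI in 3.2% of myeloid-like cells before thinning.

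In the NK-like group Gzmc was 1495, 2181, 1135 and 1021 CPM, and Gzmg 149, 128, 7.28 and 0.916 CPM. The Gzmc change was −0.84 ± 0.17 (edgeR adjusted p 0.0159, 0.577% of 8667 genes called). It was not called without control 2 (adjusted p 0.725) or DKO 2 (0.158) or with DESeq2 (1), over a range of 4.92e-06 to 1. The richest cell held 25.3%, 10.9%, 8.59% and 11% of the UMIs, and without it the levels were 1116, 1944, 1037 and 908 CPM. Without the 5 richest cells they were 546, 1510, 724 and 575 CPM, with control 1 below both DKO libraries. The share of cells with Gzmc, 14.3%, 29.3%, 20.6% and 18%, overlapped.

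The Gzmg change in the NK-like group was −5.23 ± 0.31 (edgeR adjusted p 3.41e-08) and rested on 235, 202, 13 and 2 UMIs in 3, 20, 2 and 1 cells. The richest cell held 98.3%, 38.6%, 92.3% and 100% of them. Without the richest cell the levels were 2.53, 78.3, 0.56 and 0 CPM, so that control 2 alone stood clear of the others, and without the 5 richest cells they were 0, 13.9, 0 and 0 CPM. The list of monocyte and macrophage genes was at 547, 587, 279 and 270 CPM in this group.

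Gzma was lower in DKO in CD4 T-like cells and higher in the Ccr7 group of CD8 T-like cells. In CD4 T-like cells it was 82.4, 130, 18.4 and 29.4 CPM from 107, 168, 41 and 49 UMIs. The change was −2.25 ± 0.26 (edgeR adjusted p 0.00117, 0.770% of 8313 genes called). The richest cell held 79.4%, 28.6%, 22% and 22.4% of the UMIs. Without the richest cells the levels were 16.9, 92.5, 14.4 and 22.8 CPM, with control 1 below DKO 2, and without the 5 richest cells 1.54, 30.8, 11.2 and 11.4 CPM. The shares of cells at 2000 UMIs overlapped at 1.72%, 7.66%, 3.89% and 3.32%. Myeloid-like cells held Gzma in 0.841%, 1.91%, 1.84% and 2.7%.

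In the Ccr7 group Gzma was 63.1, 27.1, 147 and 111 CPM from 41, 9, 70 and 54 UMIs. Both DKO libraries lay above both controls. In NK-like cells 25.4% of the genes tested were separated in this direction, and the share in the Ccr7 group is not given here. The Gzma change was 1.23 ± 0.28 (edgeR adjusted p 0.0411, 0.196% of 5620 genes called). It was not called without control 2 (0.246) or without DKO 1 (0.134), in a range of 0.000357 to 0.246. The richest cell held 39%, 44.4%, 20% and 29.6% of the UMIs. Without it the levels were 38.5, 15.1, 118 and 77.8 CPM, and without the 5 richest cells 23.1, 0, 52.6 and 36.8 CPM. The shares of cells were 7.96%, 6.35%, 10.2% and 10.5%.

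Gzmb was higher in DKO in type 2 T-like cells, a group named for its Il13, Il4 and Il5 transcripts. Il13 had a UMI in 31.5% of these cells, Il5 in 20.7% and Gzmb in 11.1%. Gzmb was at 42, 75.5, 326 and 288 CPM, from 9, 3, 13 and 26 cells. The change was 2.43 ± 0.26 (edgeR adjusted p 9.83e-05, 0.244% of 6135 genes called). The richest cell held 27.3%, 91.3%, 81.7% and 32.4% of the UMIs. Without it the levels were 30.5, 6.56, 59.6 and 195 CPM, higher in both DKO libraries. Without the 5 richest cells they were 7.63, 0, 14 and 47.8 CPM. This removal took all 3 cells with a UMI from control 2 and 5 of 9 from control 1. The order without the 5 richest cells was thus largely set by the cell counts. The shares of cells were 1.94%, 1.54%, 7.06% and 10%.

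**Figure D5:**
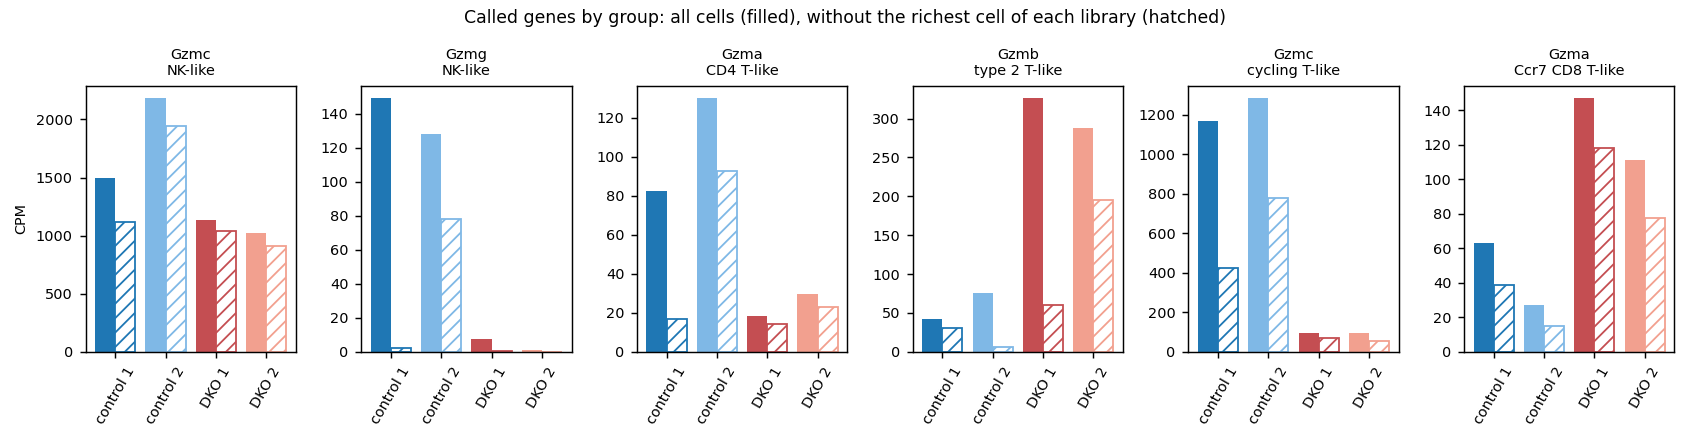
CPM of the 6 called gene and group combinations in each library, bars from 0: filled for all cells, hatched without the cell of each library that was richest in the gene. Without these cells Gzmg in the NK-like group is high in control 2 alone (78.3 CPM), Gzma in CD4 T-like cells is high in control 2 alone (92.5 CPM), and Gzmc in cycling T-like cells stays higher in both controls (422 and 777 CPM).

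Across the groups in which a gene was tested, Prf1 had a positive change in 6 of 7 (median log2 0.28) and Nkg7 a negative one in 7 of 8 (median −0.15), with no call for either. Prf1 in regulatory T-like cells had a change of 0.88 ± 0.35 (edgeR adjusted p 0.348) and in the Ccr7 group of 0.56 ± 0.27 (adjusted p 0.489). Gzma in regulatory T-like cells was 43.2, 37.8, 11.5 and 13 CPM (−1.79 ± 0.41, adjusted p 0.112). Gzmb had 4 positive and 4 negative changes over 8 groups (median 0.04).

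Lists of genes around the granule were read from the same fits, none of whose members was called in T-like or NK-like cells. All genes had a median log2 change of 0.002 in both classes, and 50.4% were positive in T-like and 50.3% in NK-like cells. Receptors and transcription factors listed as possible regulators of these genes were positive in 20 of 25 tested in T-like cells (median 0.18). In NK-like cells 19 of 23 were positive (median 0.19). Not all of them raise granzyme levels, and the list as a whole was not tested. In T-like cells Irf4, a factor downstream of antigen receptor signals, was 44.8, 39.6, 87.1 and 81.2 CPM (0.92 ± 0.12, edgeR adjusted p 0.0591), and Il2ra, the high-affinity interleukin-2 receptor chain, 191, 217, 276 and 428 CPM (0.71 ± 0.19, adjusted p 0.221). Tcf7 (−0.14) and Eomes (−0.10) had the lowest values.

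Prdm1, which encodes the effector factor Blimp-1, was 49.8, 32.4, 55.2 and 81.8 CPM in NK-like cells (0.67 ± 0.20, adjusted p 0.317), and Stat5b, a signal carrier of interleukin-2 and interleukin-15, was 32.2, 29.5, 43.8 and 52.9 CPM (0.57 ± 0.18, adjusted p 0.348). Tox (−0.24) and Hif1a (−0.17) were the most negative there. Both Prdm1 and Stat5b were without overlap and higher in DKO, as were 25.4% of all genes tested in NK-like cells, and neither was called.

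Genes of granule loading and protease maturation were positive in 4 of 11 in T-like and 3 of 11 in NK-like cells (medians −0.14 and −0.18). Ctsl, a lysosomal cathepsin that macrophages also express, was 33, 39.8, 16.3 and 23.1 CPM in T-like cells (−0.96 ± 0.17, adjusted p 0.109) and had a log2 change of −0.81 in NK-like cells. Others named by rule were Lamp1 (−0.29), Lamp2 (0.22) and M6pr (0.18) in T-like cells and Calr (−0.34), Igf2r (0.18) and M6pr (0.09) in NK-like cells. Whether RNA of macrophages, whose markers were also at lower values in DKO, takes part in the Ctsl values was not tested.

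Genes of granule release were positive in 4 of 12 in T-like (median −0.01) and 7 of 12 in NK-like cells (median 0.04). Rab27a, which docks granules at the membrane, was 47.1, 46, 71.2 and 59 CPM in T-like cells (0.42 ± 0.13) and 56.2, 53.6, 76.1 and 92.9 CPM in NK-like cells (0.54 ± 0.16, adjusted p 0.317). In NK-like cells 25.4% of all genes tested were likewise higher in DKO without overlap. Stx11, a syntaxin of granule fusion, was 58.2, 54.1, 89.5 and 85.6 CPM in T-like cells (0.57 ± 0.11, adjusted p 0.110). Vamp8 (−0.42, adjusted p 0.411) and Was (−0.22) were the most negative in NK-like cells, Was (−0.23) and Vamp8 (−0.16) in T-like cells, and Vamp7 was at 0.24 in NK-like cells.

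Serpins listed as possible inhibitors of granzymes were positive in 4 of 7 in T-like (median 0.10) and 1 of 7 in NK-like cells (median −0.18). Serpinb1a (−0.50) was the most negative in T-like cells and Serpina3g (0.19) the positive one in NK-like cells. Other killing genes, such as Fasl and Ifng, were positive in 4 of 9 in T-like (median −0.02) and 5 of 8 in NK-like cells (median 0.09). Ifng was 249, 281, 448 and 229 CPM in T-like cells (0.29 ± 0.37) and Klrd1 had a value of −0.25. Of the remaining granzymes, Gzmm was tested in T-like cells only (−0.18 ± 0.21, 8.24 to 11.2 CPM), and Gzmn had too few UMIs for a test.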

How the data were processed

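The deposited matrices hold UMI counts per gene and cell barcode from 10x Genomics 3′ v3 libraries. Per the submitters' processing notes the authors used Cell Ranger, Seurat 3.1.0 and R 3.6.0, and builds GRCh38 and mm10 are named without a role. The matrix headers name software version 3.1.0. How reads that fit several granzymes were counted is not given in the sources used here. 

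Barcodes with fewer than 200 genes or 500 UMIs, or with over 10% of UMIs from mitochondrial genes, were left out. The cells with the highest Scrublet scores were removed as doublets, 0.8% per 1000 barcodes. Cells were clustered with scanpy 1.11.5 (2000 variable genes without the 10 described, 30 components, 20 neighbours, Leiden resolution 1), and T and NK cells were clustered again. Names came from marker lists. UMIs summed per library and group were tested with edgeR 4.0.16 (TMM, filterByExpr, robust quasi-likelihood F test, Benjamini-Hochberg over all genes tested, threshold 0.05). CPM used all UMIs of the sum. On simulated counts for the T-like sums the fit recovered 100% of genes changed 2-fold or 4-fold, with 13 false calls of 11174 genes. For the NK-like sums it recovered 90.0% and 100%, with 10 false calls of 8831 genes. In the real sums Gzmd to Gzmg had standard errors of 0.72 to 2.11 in T-like and 1.48 to 2.12 in NK-like cells. Recovery of genes with such a spread between libraries was not tested.

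The 10 genes, the lists around them and the tests were chosen with earlier results of these data known. Besides the 10 genes, the text names genes called in a class, up to 2 list members with the largest change in each direction and class at 20 CPM or more in the higher group, and the 3 genes most like each of the 10. Presence was counted at 2000 UMIs per cell, and intervals and floors (3 counts) cover counting error. Same-numbered libraries did not vary together (r −0.19 over genes in T-like and in NK-like sums), so numbers were not used as pairs. Alternatives were DESeq2 1.42.0, no filter, replicate blocks, each library left out, no doublet removal, other clusterings, a gate on marker UMIs, and other depths. Coordinates and transcripts are from GENCODE for GRCm38, and promoters from RefSeq for GRCm38.p6, where all 10 genes matched by symbol.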

Additional observations from a re-analysis of the deposited data

Results flagged for a closer look

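Gzma had log2 changes, DKO over control, of opposite sign in 2 groups of T-like cells: 1.23 in the Ccr7 group of CD8 T-like cells and −2.25 in CD4 T-like cells. Both DKO libraries lay above both controls in the former and below both in the latter. The shares of all genes separated in this way in these groups are not given here. The difference between the groups was not tested. Gzma levels were low in both, at most 147 CPM, and in CD4 T-like cells 1 cell of control 1 held 79.4% of the UMIs of that library.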

How the results depend on the processing

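The count of called genes in T-like cells was 1 as reported, 46 with DESeq2, 490 with no filter on low counts, 3 with the replicate block, 30 with no doublet removal and 0 with the marker gate. In NK-like cells it was 6 as reported, 94 with no filter and 35 at Leiden resolution 2, and 4 with DESeq2 or the replicate block. With 1 library left out the counts ran from 6 (without control 2) to 763 (without DKO 1) in T-like cells and from 18 (without control 2) to 260 (without control 1) in NK-like cells. The difference between NK-like and T-like changes, 10 genes as reported, ran from 0 to 66. Calls of the 10 genes in single groups, 6 as reported, ran from 10 to 14, and were 9 with the replicate block. With the DKO numbers crossed in the block, an alternative added after seeing the data, 809 and 392 genes were called, with 4 and 2 of the 10 genes among them, and 21 calls were found in single groups.

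Members without overlap in the share of cells numbered 0 in T-like cells as reported, 1 with no thinning and 2 when at least 2 UMIs were required. In NK-like cells they numbered 1, 0 and 2, and the 4 pairs there became 2 at 4000 UMIs.

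Some of the 10 genes changed sign. With 1 library left out, log2 changes in T-like cells ran from −0.28 to 1.18 for Gzma, −0.23 to 0.64 for Gzmb, −0.33 to 1.12 for Gzmk, −0.13 to 0.87 for Prf1 and −0.43 to 0.17 for Nkg7. In NK-like cells they ran from −0.18 to 0.51 for Gzmb, −2.96 to 0.10 for Gzmd, −3.62 to 0.31 for Gzme, −3.27 to 0.38 for Gzmf, −4.49 to 0.55 for Gzmg and −0.12 to 0.45 for Prf1. Gzmc in T-like cells was at 0.11 with the members left in the clustering. Gzmd to Gzmg in T-like cells stayed negative but nearer to 0 at resolution 2 (−1.64 to −1.43) and with the gate (−1.29 to −0.97). With the gate, Gzmb was at −0.06, Gzmk at −0.78 and Prf1 at −0.07 in NK-like cells. The cause was not tested beyond the cells or libraries each setting removes. Of 120 values under alternatives, 103 in T-like and 96 in NK-like cells kept direction and side of the threshold. Gzmk in NK-like cells rested on few counts (12 to 21 UMIs per library), while the UMIs of Gzmd to Gzmg lie in few cells and differ between libraries of 1 group.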
